A study of Homo sapiens with 6 samples.

Results

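The transcriptome of UM-UC-3 cells carrying the hairpin sh-LNMAT1#1 was set beside that of UM-UC-3 cells carrying a control hairpin, sh-NC. UM-UC-3 is an established human bladder cancer cell line, and LNMAT1 is a long noncoding RNA (listed in the deposited values as LINC01296) that the study linked to spread to lymph nodes and to the chemokine gene CCL2. Of 50867 genes with values, 12054 had a mean of at least 1 FPKM over the 2 libraries and were kept. FPKM counts sequenced fragments per length of the gene and per depth of the library, so levels are per length and may be compared between genes. Each change is the difference of log2(FPKM + 0.5) between sh-LNMAT1#1 and sh-NC, which understates the change of low genes.

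Both groups were UM-UC-3 cells grown in Dulbecco's modified Eagle's medium with serum, transduced by a lentiviral vector and then held under puromycin for 2 weeks, so each is a stable pool. The label of one gives a negative control hairpin and that of the other depletion of LNMAT1 with shRNA#1. Another library, UM-UC-3 with a second hairpin (sh-LNMAT1#2) made in the same way, is given beside the values; it shares the sh-NC library, so the differences of both hairpins from sh-NC are not independent. There was 1 library on each side. No difference below therefore has a replicate check, no test was run, and a change of at least 2-fold is a rule of size only.

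Several of the gene programs described below are read through well-known regulators. Interferon-stimulated genes encode antiviral sensors and effectors and are switched on by STAT and IRF factors. NF-kB drives its own inhibitors together with survival genes, cytokines and chemokines. Genes of mitosis are expressed late in the cell cycle, so that in bulk RNA a smaller share of cells in that phase and less RNA in each cell cannot be told apart. Stress programs such as the unfolded protein response, the ATF4 response and the heat shock response raise chaperones and amino acid enzymes.

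The total per library was 24700000 fragments for sh-NC and 22300000 for sh-LNMAT1#1, with 22900000 for the second hairpin, read from single-exon genes whose values are whole multiples of 1 fragment. A transcript of 2000 bases at 1 FPKM thus rests on 49.4 fragments in sh-NC and 44.6 in sh-LNMAT1#1, and such figures cover counting error only. Of 6 markers of carcinoma of epithelial origin, 2 reached 1 FPKM in both sh-NC and sh-LNMAT1#1, and KRT7 and KRT19 did not. Of 4 mesenchymal markers, 3 reached it in sh-NC and 4 in sh-LNMAT1#1. KRT18, a keratin of simple epithelium, was 19.4 FPKM in sh-NC and 15.9 FPKM in sh-LNMAT1#1, and ZEB1, a repressor of epithelial genes, was 12.5 and 12.7 FPKM. Of 7 urothelial markers 0 reached 1 FPKM in sh-NC and 1 (PPARG, 3.85 FPKM) in sh-LNMAT1#1, and EPCAM and CDH1 stayed at or under 0.021 FPKM in both. Of 6 macrophage and leukocyte markers only CD68, a lysosomal protein, reached 1 FPKM, at 15.4 and 29.2 FPKM. PTPRC and LYZ were at 0, and the 6 summed to 15.5 and 29.4 FPKM. The summed fibroblast markers were 0.779 and 0.769 FPKM and the summed endothelial markers 0.0966 and 0.173 FPKM.

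Among the 6 libraries of the series, the one labelled 5637 sh-NC stood apart from its label. It held EPCAM at 0.0104 FPKM, against 33.8 and 35.6 FPKM in the other 5637 libraries. KRT19 was 0.0729 against 300 and 409 FPKM, VIM 103 against 3.85 and 4.14 FPKM, and ZEB1 12.6 against 0.0264 and 0.00774 FPKM. In each of these genes its value was near those of the UM-UC-3 libraries and far from those of the other 5637 libraries. How it came to bear its label was not tested. Across the 12054 genes, sh-LNMAT1#1 of UM-UC-3 had a Pearson r on the log2 scale of 0.981 with that library, 0.915 with sh-LNMAT1#2 and 0.902 with sh-NC of its own line, and at most 0.755 with the other 5637 libraries. These are descriptions over genes that share libraries and depth. What this closeness means for the differences below was not tested, and the library enters none of the counts. Its values are given beside some genes and lists.

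LINC01296 itself (ENSG00000244306, chromosome 14 of GRCh38, 19284653 to 19337730) was 14.2 FPKM in sh-NC, 6.2 FPKM in sh-LNMAT1#1 and 6.70 FPKM in sh-LNMAT1#2. The difference with sh-LNMAT1#1 was -1.13 on the log2 scale, in the direction of its label. In the library that bears the label 5637 sh-NC the level was 11.7 FPKM. Near-identical copies could take some of its reads: DUXAP9 lay below the filter at 0.836 and 0.397 FPKM, and the symbol DUXAP8 stands on 2 rows, at 0.260 and 3.32 FPKM on one and at 1.34 and 1.70 FPKM on the other.

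The promoters below show the letters on which some of the groups described here are known to rely. They are RefSeq windows on GRCh38.p14, from 250 bases before to 50 after the start of the gene, written 5′ to 3′ on the gene's strand, and the capitals mark matches on either strand to the motif named with each.
IFIT1 and IFI6, from chr10:89392373-89392672 (plus strand) and chr1:27672143-27672442 (minus strand), carried 2 and 3 matches to the interferon-stimulated response element (TTTC, 2 bases of any kind and TTTC):
IFIT1: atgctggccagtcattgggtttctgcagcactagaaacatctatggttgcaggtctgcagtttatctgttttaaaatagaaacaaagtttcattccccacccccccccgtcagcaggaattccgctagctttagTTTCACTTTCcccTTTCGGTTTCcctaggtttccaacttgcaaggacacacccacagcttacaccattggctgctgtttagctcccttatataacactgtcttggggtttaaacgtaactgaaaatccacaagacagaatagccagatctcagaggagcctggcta
IFI6: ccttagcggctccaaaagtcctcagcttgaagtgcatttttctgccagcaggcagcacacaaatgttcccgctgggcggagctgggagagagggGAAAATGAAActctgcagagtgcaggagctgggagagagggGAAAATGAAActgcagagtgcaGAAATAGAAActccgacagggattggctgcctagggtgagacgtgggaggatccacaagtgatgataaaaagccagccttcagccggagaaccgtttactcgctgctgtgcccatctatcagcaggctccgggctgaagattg
BIRC3, from chr11:102317234-102317533 (plus strand), carried 1 match to the NF-kB letters (GGG, 3 bases of any kind and TTCC):
BIRC3: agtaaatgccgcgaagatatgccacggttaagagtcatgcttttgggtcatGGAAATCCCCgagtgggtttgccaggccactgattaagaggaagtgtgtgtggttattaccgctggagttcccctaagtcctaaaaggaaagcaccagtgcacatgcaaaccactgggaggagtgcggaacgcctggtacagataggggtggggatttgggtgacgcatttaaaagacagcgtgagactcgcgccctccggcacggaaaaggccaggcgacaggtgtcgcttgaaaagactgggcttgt
MKI67, from chr10:128126374-128126673 (minus strand), carried 2 matches to the cell cycle homology region TTTGAA:
MKI67: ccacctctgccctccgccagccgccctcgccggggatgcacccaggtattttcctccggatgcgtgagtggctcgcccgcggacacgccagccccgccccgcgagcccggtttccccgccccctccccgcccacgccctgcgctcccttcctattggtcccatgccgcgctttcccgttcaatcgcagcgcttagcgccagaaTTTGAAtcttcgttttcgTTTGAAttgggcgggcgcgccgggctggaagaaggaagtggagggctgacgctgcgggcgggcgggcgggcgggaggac
HSPA5, from chr9:125241294-125241593 (minus strand), carried 1 match to the endoplasmic reticulum stress element (CCAAT, 9 bases of any kind and CCACG):
HSPA5: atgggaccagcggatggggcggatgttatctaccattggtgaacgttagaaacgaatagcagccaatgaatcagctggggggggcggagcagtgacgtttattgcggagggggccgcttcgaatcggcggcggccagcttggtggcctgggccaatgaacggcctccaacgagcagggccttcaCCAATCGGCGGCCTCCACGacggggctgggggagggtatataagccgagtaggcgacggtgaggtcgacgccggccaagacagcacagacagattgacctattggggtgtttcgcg
In each of these windows the matches shown overlapped none of the other motifs searched.

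Across the transcriptome, 710 genes (5.89%) were at least 2-fold higher in sh-LNMAT1#1 and 635 (5.27%) at least 2-fold lower, while 10709 lay between. The counts of list members below are to be read against these shares. The median change was 0.00, and the 25th and 75th percentiles were -0.37 and 0.39. At least 4-fold, 69 genes were higher and 64 lower. With sh-LNMAT1#2, over the same genes and against the same sh-NC library, 222 (1.84%) were higher and 179 (1.48%) lower. The limit had no gap around it: 142 genes were higher by 1 to 1.1 on the log2 scale and 203 by 0.9 to 1, and 124 and 188 were lower by as much. Likewise 297 genes had a mean of 1 to 1.1 FPKM and were kept, and 347 had 0.9 to 1 FPKM and were not. Which direction held more genes depended on the scaling: 75th-percentile scaling gave 836 higher and 558 lower, and rescaling without mitochondrial genes and the 10 highest others gave 616 higher and 758 lower.

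**Figure D1:**
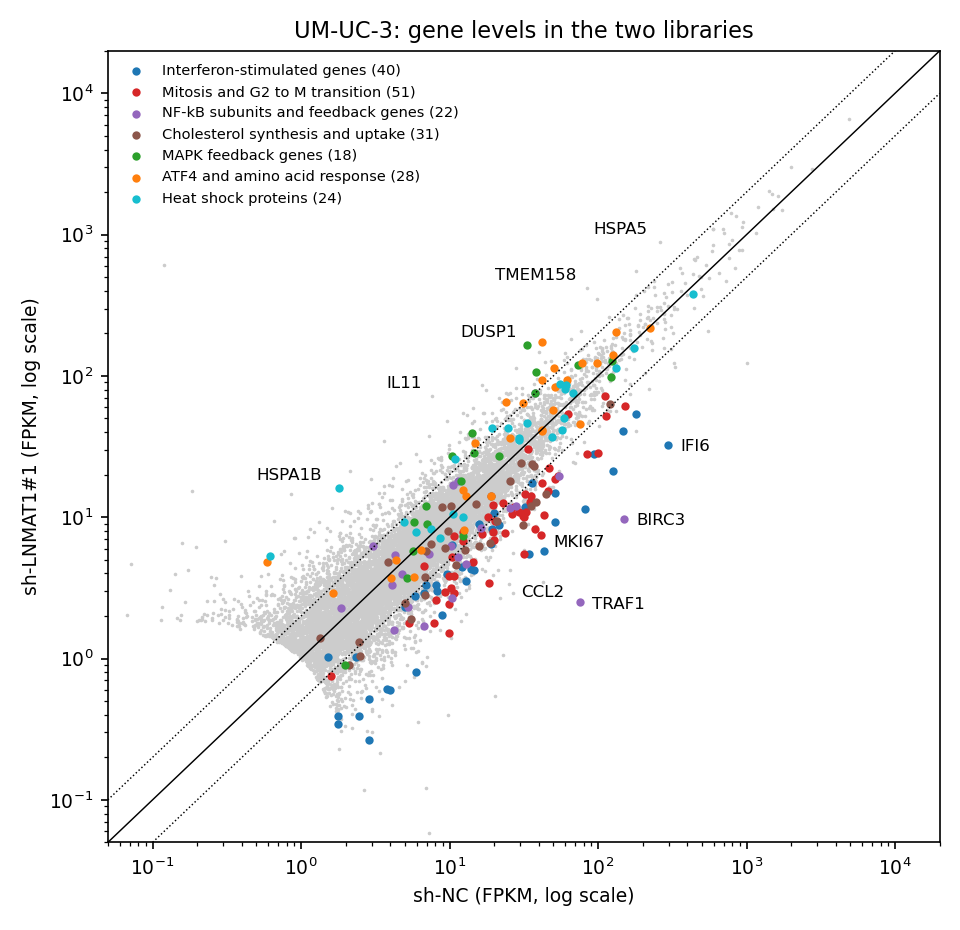
Level of each kept gene in sh-NC (horizontal) and sh-LNMAT1#1 (vertical), in FPKM on log axes, for genes above 0 in both libraries. The solid line marks equal levels and the dotted lines 2-fold, and colours mark 7 gene lists with the number of members kept. Interferon-stimulated and mitosis genes lie on or under the solid line throughout, and TRAF1 (75.6 against 2.49 FPKM) lies farthest below it among the members coloured.

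The interferon-stimulated genes stood lowest as a group. All 40 members kept were lower in sh-LNMAT1#1, 32 of them at least 2-fold and 0 at least 2-fold higher, with a median of -1.53 against 0.00 over all genes. Their median level was 12.6 FPKM in sh-NC and 4.26 FPKM in sh-LNMAT1#1. With sh-LNMAT1#2 their median change was 0.15, 1 member was at least 2-fold higher and 0 lower, and the median level was 14.6 FPKM. It was 1.81 FPKM in the library bearing the label 5637 sh-NC.

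IFI6 (ENSG00000126709), an interferon-induced mitochondrial protein and the member that differed most, was 296 FPKM in sh-NC, 32.3 FPKM in sh-LNMAT1#1 and 350 FPKM in sh-LNMAT1#2, a difference of -3.18 with sh-LNMAT1#1. USP18, which removes the ubiquitin-like protein ISG15 from its targets, was 43.2, 5.73 and 46.7 FPKM in the same order, a difference of -2.81. IFIT3, one of the proteins that bind viral RNA together with IFIT1, was 82.3, 11.5 and 83.4 FPKM, a difference of -2.79. In all 3 genes the sh-NC and sh-LNMAT1#2 libraries lay close together and sh-LNMAT1#1 alone was low. DDX58, which encodes the RNA sensor RIG-I, was 125, 21.4 and 157 FPKM, a difference of -2.52. IFIT1 was 34.0, 5.53 and 46.1 FPKM, also a difference of -2.52.

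Other members, chosen after their values were seen, ran from sensors to effectors and to the factors that transmit the interferon signal. OAS3, which makes the messenger that activates RNase L, was 51.3 FPKM in sh-NC and 9.19 FPKM in sh-LNMAT1#1. ISG15 was 146 and 40.6 FPKM, and IFITM3, which hinders viral entry, was 181 and 53.7 FPKM. Smaller differences were found for the signal transducer STAT2 (-1.08) and for IRF9 (-0.80), the DNA-binding subunit of the complex it forms. TRIM22 differed least of the 40, at 1.53 and 1.03 FPKM. SAMHD1, a nucleotide hydrolase that restricts viruses and is not in the list, was among the 15 protein-coding genes lowest in sh-LNMAT1#1, at 35.4 FPKM in sh-NC, 5.62 FPKM in sh-LNMAT1#1 and 25.8 FPKM in sh-LNMAT1#2.

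Genes of antigen presentation by MHC class I, many of which respond to interferon, were lower by less. Of 21 kept, 5 were at least 2-fold lower and 0 higher, with a median of -0.50, against 0.14 with sh-LNMAT1#2. The immunoproteasome subunit PSMB9 was 4.76 FPKM in sh-NC and 1.65 FPKM in sh-LNMAT1#1, a difference of -1.29. HLA-B, a class I heavy chain whose reads can be shared with other HLA genes, was 116 and 53.5 FPKM, a difference of -1.11, and 157 FPKM in sh-LNMAT1#2. ERAP2, which trims peptides, differed by -1.17, and TAPBP, which helps to load them, by -1.10.

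The promoter windows that could be matched to kept genes numbered 8437, and 2.93% of them held the response element letters spelled out above. Among the windows of interferon-stimulated genes it was 22 of 33 (66.7%). Among all genes at least 2-fold lower it was 34 of 435 windows (7.82%), and among those at least 2-fold higher 10 of 389 (2.57%). A match describes these 300 bases only and shows no binding. The lower genes include members of the interferon list, a group known to rely on this element, so these shares are not independent.

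NF-kB genes included TRAF1, the largest fall among protein-coding genes that were above 0 in both libraries. Of 22 subunits and feedback genes kept, 11 were at least 2-fold lower and 0 higher, with a median of -0.97, against 0.02 with sh-LNMAT1#2, where 2 were at least 2-fold higher and 0 lower. TRAF1 (ENSG00000056558), an adaptor of TNF receptors, was 75.6 FPKM in sh-NC, 2.49 FPKM in sh-LNMAT1#1 and 39.8 FPKM in sh-LNMAT1#2, a difference of -4.67 with sh-LNMAT1#1. BIRC3, the ubiquitin ligase cIAP2 of the same receptors, was 149, 9.72 and 113 FPKM, a difference of -3.87. Both were as low in the library labelled 5637 sh-NC, at 2.23 FPKM for TRAF1 and 9.35 FPKM for BIRC3.

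The inhibitors and subunits differed less than these 2 genes. NFKBIE, an inhibitor that holds NF-kB in the cytoplasm, was 10.4 FPKM in sh-NC and 2.68 FPKM in sh-LNMAT1#1, a difference of -1.77. IRF1, a target of both NF-kB and interferon, was 6.69 and 1.69 FPKM, a difference of -1.72. Of members chosen after their values were seen, the precursor subunits NFKB2 and NFKB1 differed by -1.46 and -1.38, whereas RELA, the main activating subunit, differed by -0.37. Not every feedback gene was lower: NFKBIZ differed by 0.95 and BCL2A1, a survival gene, by 0.67. The NF-kB letters were in 7 of 19 windows of the list (36.8%) and in 7.66% of all windows. They were in 9.89% of the windows of genes at least 2-fold lower and in 4.11% of those at least 2-fold higher. The lower genes include members of this list, so these shares are not independent. Among members named above, BIRC3, NFKB1 and NFKBIZ held a match, and TRAF1, IRF1, NFKB2, RELA and BCL2A1 did not.

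Secreted products of the same cells moved both ways. Of 10 CC and CXC chemokines kept, 4 were at least 2-fold lower and 0 higher, with a median of -0.79. CCL2 (ENSG00000108691), which attracts monocytes, was 25.2 FPKM in sh-NC, 3.36 FPKM in sh-LNMAT1#1 and 6.78 FPKM in sh-LNMAT1#2, low with both hairpins. CXCL8, which attracts neutrophils, was 180, 40.7 and 158 FPKM, and CCL20 was 3.0, 0.301 and 8.94 FPKM, so these 2 were low with sh-LNMAT1#1 alone. CCL5 was 12.5, 3.62 and 9.31 FPKM. In the library labelled 5637 sh-NC, CCL2 was 3.78 FPKM, CXCL8 48.0 FPKM, CCL20 0.534 FPKM and CCL5 3.35 FPKM. CXCL1 and CXCL2, neutrophil attractants chosen after their values were seen, differed by -0.43 and -0.58 with sh-LNMAT1#1.

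Interleukins and colony-stimulating factors held both the extremes among cytokines. CSF2, the growth factor of granulocytes and macrophages, was 9.72 FPKM in sh-NC, 0.399 FPKM in sh-LNMAT1#1 and 3.60 FPKM in sh-LNMAT1#2, a difference of -3.51 with sh-LNMAT1#1. IL11, a cytokine of the IL6 family, was 7.6, 72.0 and 20.5 FPKM, a difference of 3.16, and 81.4 FPKM in the library labelled 5637 sh-NC. It was the largest rise among protein-coding genes above 0 in both libraries and with a mean of at least 5 FPKM. Of 10 members kept, 2 were at least 2-fold higher and 3 lower. IL23A and EBI3, cytokine subunits at 1.81 and 1.85 FPKM in sh-NC, were 0.230 and 0.375 FPKM in sh-LNMAT1#1.

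Among TNF superfamily genes, 2 of 13 were at least 2-fold higher (15.4%) and 1 lower (7.69%), against 5.89% and 5.27% of all kept genes. The decoy receptor TNFRSF10D was 7.32 FPKM in sh-NC, 37.6 FPKM in sh-LNMAT1#1 and 5.15 FPKM in sh-LNMAT1#2. The ligand TNFSF9 was 1.51 and 4.58 FPKM in sh-NC and sh-LNMAT1#1, and its receptor TNFRSF9 was 2.79 and 0.310 FPKM. Ligand and receptor thus differed in opposite directions.

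Proliferation genes formed the other large group of falls. All 51 genes of mitosis and the G2 to M transition were kept and lower in sh-LNMAT1#1, 39 of them at least 2-fold, with a median of -1.37 and a range from -2.42 to -0.15. With sh-LNMAT1#2 the median was -0.37, and 1 was at least 2-fold lower and 0 higher. The median level of the list was 23.7 FPKM in sh-NC, 9.40 FPKM in sh-LNMAT1#1 and 19.3 FPKM in sh-LNMAT1#2. With 10.7 FPKM, the library under the 5637 sh-NC label lay nearer to sh-LNMAT1#1 than to sh-NC. Why a library with a control label had such a level was not tested.

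KIF20A (ENSG00000112984), a kinesin of cytokinesis, was 31.9 FPKM in sh-NC, 5.54 FPKM in sh-LNMAT1#1 and 18.6 FPKM in sh-LNMAT1#2, a difference of -2.42. MKI67, the proliferation marker Ki-67, was 41.1, 7.49 and 22.5 FPKM, a difference of -2.38. SPC25, a kinetochore subunit, was 9.91, 1.52 and 3.71 FPKM, and FOXM1, a transcription factor of mitotic genes, was 18.6, 3.43 and 13.5 FPKM. In these 4 genes sh-LNMAT1#2 lay between the other libraries. Of members chosen after their values were seen, cyclin B1 (CCNB1) differed by -2.11, the kinase PLK1 by -1.82 and the topoisomerase TOP2A by -1.78. CDK1, its binding subunit CKS1B and the spindle checkpoint proteins BUB1B and BUB3 did not reach 2-fold, at -0.82, -0.54, -0.51 and -0.15.

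DNA replication genes were lower by less and less evenly. Of 50 kept, 14 were at least 2-fold lower and 0 higher, with a median of -0.63, against -0.30 with sh-LNMAT1#2. POLA1, the catalytic subunit of the polymerase that starts new strands, was 13.9 FPKM in sh-NC, 3.9 FPKM in sh-LNMAT1#1 and 9.67 FPKM in sh-LNMAT1#2. FANCD2, of crosslink repair, was 8.64 and 2.79 FPKM in sh-NC and sh-LNMAT1#1, CDC45, of the replicative helicase, 13.4 and 4.56 FPKM, and GINS4, of the same helicase, 3.31 and 0.874 FPKM. By contrast PCNA, the sliding clamp, was 163 and 158 FPKM, MCM2 25.5 and 23.4 FPKM and the G1 cyclin CCNE1 4.23 and 6.54 FPKM, all chosen after their values were seen.

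The letters TTTGAA were in 31 of 43 windows of the mitosis list (72.1%) and in 1 of 42 windows of the replication list (2.38%), and in 9.19% of all windows. Of the windows of genes at least 2-fold lower, 87 of 435 held them, and of those at least 2-fold higher 34 of 389 (8.74%). The E2F letters GCGGGAA were in 21 of 42 replication windows, in 11.6% of mitosis windows and in 11.3% of all windows. Both lists were drawn from textbook knowledge of the cell cycle, which includes these elements.

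Among clustered histone genes, which are transcribed in S phase, 3 of 23 were at least 2-fold higher and 0 lower. The share higher was 13.0%, against 5.89% of all kept genes. HIST1H1C was 14.2 FPKM in sh-NC, 37.0 FPKM in sh-LNMAT1#1 and 37.1 FPKM in sh-LNMAT1#2. HIST1H2BK was 14.3, 32.2 and 33.9 FPKM. Both genes were higher with either hairpin. They were 39.0 and 29.8 FPKM in the library labelled 5637 sh-NC. Whether such levels follow the share of cells in S phase was not tested.

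Of 31 kept genes of cholesterol synthesis and uptake, 11 were at least 2-fold lower and 0 higher, with a median of -0.78, against -0.19 with sh-LNMAT1#2, where 3 were lower. ACAT2, an acetoacetyl-CoA thiolase at its beginning, was 31.3 FPKM in sh-NC, 8.84 FPKM in sh-LNMAT1#1 and 19.7 FPKM in sh-LNMAT1#2. DHCR7, a reductase at its end, was 44.4 FPKM in sh-NC, 14.5 FPKM in sh-LNMAT1#1 and 38.8 FPKM in sh-LNMAT1#2. MSMO1, a methylsterol oxidase, was 35.2, 12.1 and 19.3 FPKM. Over the 31 genes the median level was 11.1 FPKM in sh-NC, 6.56 FPKM in sh-LNMAT1#1 and 10.7 FPKM in sh-LNMAT1#2. The library under the 5637 sh-NC label had a median level of 6.70 FPKM. The regulator INSIG1, chosen after its values were seen, differed by 0.29. The sterol letters TCACNCCAC were in 1 of 24 windows of the list (4.17%) and in 0.948% of all windows.

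RNA processing and chromatin lists had medians a little below 0. Of 39 splicing and hnRNP factors, 5 were at least 2-fold lower (12.8%) and 1 higher (2.56%), against 5.27% and 5.89% of all kept genes. Their median was -0.29. HNRNPA3 was 19.3 FPKM in sh-NC and 6.39 FPKM in sh-LNMAT1#1, and the splicing factors SRSF6, SRSF7 and SRSF3 differed by -1.48, -1.33 and -1.30. HNRNPL, the protein the study linked to LNMAT1, was 29 FPKM in sh-NC, 23.7 FPKM in sh-LNMAT1#1 and 29 FPKM in sh-LNMAT1#2. Of 25 genes that add or remove histone methylation, H3K4 methylation above all, MEN1, a subunit of the KMT2A and KMT2B complexes, was lower at 4.31 and 1.40 FPKM, and SETD7, a lysine methyltransferase, was higher at 2.27 FPKM in sh-NC, 9.45 FPKM in sh-LNMAT1#1 and 8.10 FPKM in sh-LNMAT1#2. Of 14 genes of RNA interference, TNRC6A, a partner of Argonaute, was the 1 at least 2-fold lower, at 6.63 and 3.03 FPKM. That is 7.14%, near the 5.27% over all kept genes.

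MAPK feedback genes, which damp or report signalling through ERK, had the highest median of the lists with more than 15 members. Of 18 kept, 4 were at least 2-fold higher and 0 lower, with a median of 0.59, against -0.28 with sh-LNMAT1#2. DUSP1 (ENSG00000120129), a phosphatase of MAP kinases, was 33.1 FPKM in sh-NC, 165 FPKM in sh-LNMAT1#1 and 62.8 FPKM in sh-LNMAT1#2, a difference of 2.30. DUSP5 was 38.5, 106 and 99.2 FPKM, whereas DUSP6, the phosphatase most specific for ERK, was 14.2, 39.7 and 9.91 FPKM. SPRY2, an inhibitor of receptor signalling, was 10.4, 27.3 and 14.9 FPKM. The SPRED genes of the same family did not follow, since SPRED3, SPRED2 and SPRED1 differed by -0.81, -0.70 and -0.42. TMEM158, a gene induced by RAS and not in the list, was 83.7, 418 and 51.4 FPKM, among the 15 largest rises.

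Immediate early factors had a median of 0.36 over 17 genes, of which 1 was at least 2-fold higher (5.88%, against 5.89% of all kept genes). That was KLF2, at 13.5 FPKM in sh-NC, 38.6 FPKM in sh-LNMAT1#1 and 20.6 FPKM in sh-LNMAT1#2. Of TGF-beta and BMP genes, 3 of 19 were at least 2-fold higher (15.8%) and 2 lower (10.5%). ID1, a direct BMP target, was 17.6, 79.5 and 31.4 FPKM, and LTBP1, which stores TGF-beta in the matrix, was 1.98 and 6.24 FPKM in sh-NC and sh-LNMAT1#1. Its relative LTBP2 was lower at 16.9 and 6.51 FPKM, as was the signal transducer SMAD3 at 37.4 and 16.5 FPKM.

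Of 28 ATF4 and amino acid response genes, 7 were at least 2-fold higher and 0 lower, with a median of 0.32, and with sh-LNMAT1#2 0 were higher and 0 lower. DDIT4, an inhibitor of mTORC1, was 42.1 FPKM in sh-NC, 174 FPKM in sh-LNMAT1#1 and 51.3 FPKM in sh-LNMAT1#2. PHGDH, the first enzyme of serine synthesis, was 24.0, 65.3 and 26.2 FPKM, and TRIB3, a pseudokinase, was 50.7, 114 and 86.5 FPKM. NUPR1, a stress-induced chromatin protein, was low in sh-NC at 0.586 FPKM and 4.86 FPKM in sh-LNMAT1#1. ATF4 itself was 126 and 141 FPKM, and its target SLC7A5, an amino acid transporter, was 75.5 and 46.0 FPKM; both were chosen after their values were seen.

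In the unfolded protein response of the endoplasmic reticulum, 2 of 23 genes (8.70%, near the 5.89% over all kept genes) were at least 2-fold higher and 0 lower, with a median of 0.25, against -0.06 with sh-LNMAT1#2. HSPA5 (ENSG00000044574), the main chaperone of that compartment, was 262 FPKM in sh-NC, 886 FPKM in sh-LNMAT1#1, 329 FPKM in sh-LNMAT1#2 and 880 FPKM in the library labelled 5637 sh-NC. DNAJC3, its cochaperone, was 10.1, 22.7 and 8.61 FPKM in the 3 UM-UC-3 libraries. XBP1 and SEL1L came close to 2-fold at 0.95 and 0.94. Other luminal chaperones, also chosen after their values were seen, hardly differed: HSP90B1 was 146 and 157 FPKM, CALR 148 and 142 FPKM and PDIA4 94.5 and 85.8 FPKM. The letters shown in the HSPA5 promoter were in 5 of 22 windows of this list (22.7%) and in 12 of all 8437 windows (0.142%). SURF4, a cargo receptor that cycles between this compartment and the Golgi, was among the 15 largest rises at 9.61, 47.8 and 11.9 FPKM. The 23 listed genes had a median level of 13.1 FPKM in sh-NC, 22.2 FPKM in sh-LNMAT1#1 and 13.5 FPKM in sh-LNMAT1#2. Under the 5637 sh-NC label their median level was 22.4 FPKM. A median level need not rest on the same gene in each library, so these levels do not give the median change.

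Of 24 heat shock genes, 4 were at least 2-fold higher and 0 lower, with a median of 0.29. HSPA1B and HSPA1A, near-identical copies of the inducible HSP70 gene whose reads cannot be told apart with certainty, were 1.81 and 0.617 FPKM in sh-NC and 16 and 5.34 FPKM in sh-LNMAT1#1. AHSA1, an activator of HSP90, was 10.8 FPKM in sh-NC, 25.8 FPKM in sh-LNMAT1#1 and 24.9 FPKM in sh-LNMAT1#2, and HSPA8 was 19.3, 42.9 and 19.8 FPKM. The abundant HSP90AB1 and HSP90AA1, chosen after their values were seen, differed by -0.20 and -0.13. The heat shock element (TTC, GAA and TTC, each 2 bases apart) was in 3 of 22 windows of the list (13.6%) and in 0.308% of all windows.

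Lysosome and autophagy genes had a median of 0.41 over 33 members, with 6 at least 2-fold higher (18.2%) and 1 lower (3.03%). The shares over all kept genes were 5.89% and 5.27%. PSAP, the precursor of the saposins, was 179 FPKM in sh-NC, 557 FPKM in sh-LNMAT1#1 and 297 FPKM in sh-LNMAT1#2. MAP1LC3B, of the autophagosome membrane, was 27.9, 70.1 and 30.6 FPKM, and the tetraspanin CD63 was 40.4, 95.3 and 48.3 FPKM. CD68, which the marker list takes for macrophages and which is a lysosomal protein of other cells too, differed by 0.90. The 1 lower member was ATG7, an enzyme of autophagosome formation, at 7.70 and 3.11 FPKM.

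NRF2 and redox genes had a median of 0.42 over 31 members. Of these, 6 were at least 2-fold higher (19.4%) and 1 lower (3.23%), against 5.89% and 5.27% of all kept genes. PRDX4, a peroxiredoxin of the secretory pathway, was 14.4 FPKM in sh-NC, 59.5 FPKM in sh-LNMAT1#1 and 51.1 FPKM in sh-LNMAT1#2. FTH1, the ferritin heavy chain, was 76.9, 210 and 93.0 FPKM; its processed copies can share its reads, and one of them, FTH1P2, was 97.7, 353 and 159 FPKM. ME1, a malic enzyme that supplies NADPH, was 7.16 and 17.9 FPKM in sh-NC and sh-LNMAT1#1, whereas PGD, of the pentose phosphate pathway, was 35.6 and 14.8 FPKM. NQO1, chosen after its values were seen and a standard NRF2 target, was 35.3 and 35.8 FPKM.

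Of 25 p53 targets, 5 were at least 2-fold higher (20%) and 2 lower (8%), against 5.89% and 5.27% of all kept genes. The median was 0.01. PERP, a membrane protein of desmosomes and apoptosis, was 12.4 FPKM in sh-NC, 54.5 FPKM in sh-LNMAT1#1 and 31.3 FPKM in sh-LNMAT1#2. DDB2, of DNA damage recognition, was 1.90, 6.75 and 1.55 FPKM, and ZMAT3 was 2.60, 6.29 and 1.37 FPKM. PLK2 was lower at 23.9, 7.70 and 24.6 FPKM. SAT1, a polyamine acetyltransferase that is not in the list and is one of the 15 largest rises, was 16.7, 85.6 and 31.8 FPKM.

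Growth factor and matrix genes differed in both directions. VEGFA, the blood vessel growth factor, was 2.42 FPKM in sh-NC, 9.82 FPKM in sh-LNMAT1#1 and 4.80 FPKM in sh-LNMAT1#2. VEGFC, the growth factor of lymphatic vessels, was 13.0, 10.6 and 16.4 FPKM, a difference of -0.29 with sh-LNMAT1#1. Of 11 IGF genes, 3 were at least 2-fold higher, all of them binding proteins: IGFBP6 was 7.92 and 24.3 FPKM, IGFBP4 7.73 and 20.5 FPKM and IGFBP3 0.999 and 3.56 FPKM. The 1 lower member was IGF2BP3, an RNA-binding protein, at 5.46 and 2.06 FPKM. Of 21 matrix proteases and inhibitors, 6 were at least 2-fold higher (28.6%) and 3 lower (14.3%), against 5.89% and 5.27% of all kept genes. MMP1, an interstitial collagenase, was 1.15, 8.25 and 1.61 FPKM, while MMP9, a gelatinase, was 12.9, 2.08 and 2.80 FPKM, lower with both hairpins. PLAU, the urokinase, was 549, 208 and 317 FPKM. The library labelled 5637 sh-NC held MMP1 at 15.9 FPKM, MMP9 at 2.67 FPKM and PLAU at 140 FPKM.

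State markers of the cells also differed. VIM, the mesenchymal intermediate filament, was 332 FPKM in sh-NC, 116 FPKM in sh-LNMAT1#1 and 155 FPKM in sh-LNMAT1#2, a difference of -1.52. SNAI2 and FN1, other mesenchymal genes, were higher from low levels, at 0.539 and 1.98 FPKM for SNAI2 and 0.816 and 2.27 FPKM for FN1. The list of mesenchymal genes thus had 2 members at least 2-fold higher (13.3%) and 1 lower (6.67%), of 15. Over all kept genes the shares were 5.89% and 5.27%. Of 6 epithelial adhesion genes, 2 were at least 2-fold higher and 1 lower. CLDN1, a tight junction protein, was 7.91 and 17.7 FPKM, and PKP3, a plakophilin of desmosomes, was 2.54 and 0.984 FPKM. TPM4, an actin-binding tropomyosin, was 11.7, 40.2 and 49.2 FPKM, higher with either hairpin. CALD1, a regulator of contraction, was lower at 10.8 and 4.11 FPKM. These genes were 40.4 and 3.97 FPKM in the library labelled 5637 sh-NC. Of 20 YAP and TEAD targets, 4 were at least 2-fold lower (20%, against 5.27% of all kept genes) and 0 higher. Among the lower were NUAK2, a kinase, at 7.41 and 1.57 FPKM, and AMOTL2, an inhibitor of YAP, at 22.6 and 10.3 FPKM.

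Ligands seen by immune cells had a median of 0.57 over 11 genes, with 3 at least 2-fold higher and 1 lower. ULBP2, a stress ligand of the receptor NKG2D, was 1.62 FPKM in sh-NC, 11.7 FPKM in sh-LNMAT1#1 and 2.36 FPKM in sh-LNMAT1#2. MICB, a ligand of the same receptor, was lower at 11.2, 5.03 and 10.5 FPKM. The poliovirus receptor PVR was 25.8, 67.1 and 32.4 FPKM and CD276 2.35, 5.21 and 3.95 FPKM. LY96, the coreceptor of TLR4, was 2.13, 21.2 and 2.14 FPKM, one of the 15 largest rises with sh-LNMAT1#1.

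Several large differences belonged to none of the lists. TMEM265 was 20.2 FPKM in sh-NC, 0.541 FPKM in sh-LNMAT1#1 and 0.263 FPKM in sh-LNMAT1#2. CD82, a tetraspanin described as a suppressor of metastasis, was 21.7, 2.70 and 5.68 FPKM. Both were low with either hairpin, and were 0.134 and 2.78 FPKM in the library labelled 5637 sh-NC. TMEM203 was 23.0, 1.07 and 24.2 FPKM, low with sh-LNMAT1#1 alone. LURAP1L was 3.62, 34.8 and 17.7 FPKM, higher with either hairpin, as was ZNF337 at 1.97, 11 and 4.41 FPKM. They were 31.2 and 9.84 FPKM in the library labelled 5637 sh-NC. C19orf33 was 5.90, 28.2 and 6.85 FPKM. The readthrough gene RPL17-C18orf32 (4.66, 24.1 and 23.8 FPKM) and CGB8, which has near-identical neighbours (1.33, 9.31 and 2.57 FPKM), are uncertain because their reads can be shared.

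Of 28 Wnt and Notch genes of developmental signalling, 6 were at least 2-fold higher (21.4%, against 5.89% of all kept genes) and 0 lower, with a median of 0.28. The ligand WNT7B was 4.66 FPKM in sh-NC, 11.3 FPKM in sh-LNMAT1#1 and 4.23 FPKM in sh-LNMAT1#2, and the receptors FZD8 and LGR4 were 0.773 and 0.297 FPKM in sh-NC and 3.25 and 1.89 FPKM in sh-LNMAT1#1. HOX genes had a median of -0.24 over 14, and HOXB2 was 19.8, 8.93 and 9.34 FPKM, low with either hairpin. In the library labelled 5637 sh-NC HOXB2 was 10.9 FPKM. Of 21 collagen and basement membrane genes 1 was at least 2-fold lower (4.76%, near the 5.27% over all kept genes) and 0 higher. That was COL17A1, a collagen of hemidesmosomes, at 3.40, 0.216 and 1.16 FPKM. ITGB3, an integrin of blood platelets and other cells, was the 1 of 9 integrins at least 2-fold higher, at 2.00, 6.33 and 2.19 FPKM. Of 38 genes of MYC and ribosome biogenesis, 2 were at least 2-fold higher (5.26%) and 1 lower (2.63%), with a median of -0.15. Over all kept genes the shares were 5.89% and 5.27%. NOLC1, a nucleolar phosphoprotein, was 14.2, 46.4 and 49.2 FPKM, higher with both hairpins, and 41.8 FPKM in the library labelled 5637 sh-NC.

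Most abundant housekeeping programs stayed near 0, but cytosolic ribosomal proteins lay above it. Nuclear-encoded genes of oxidative phosphorylation had a median of 0.04 over 79 members, with 1 at least 2-fold lower (NDUFB7, 51.0 and 18.8 FPKM) and 0 higher. Proteasome subunits had a median of -0.10 over 31, mitochondrial ribosomal proteins of -0.14 over 76 and aminoacyl-tRNA synthetases of 0.06 over 20. Cytosolic ribosomal proteins, whose many processed copies can share reads, had a median of 0.23 over 83, with 1 at least 2-fold higher (RPS3A, 43.8 and 125 FPKM). Of these 83, 63 were above 0 and 20 below, and the median with sh-LNMAT1#2 was 0.03. GAPDH was 834 and 583 FPKM, a difference of -0.51, and ACTB 92.9 and 106 FPKM, a difference of 0.18. LDHA, the lactate dehydrogenase, was lower with both hairpins, at 72.5 FPKM in sh-NC, 28.3 FPKM in sh-LNMAT1#1 and 23.0 FPKM in sh-LNMAT1#2, while the 35 glycolysis and hypoxia genes had 4 members at least 2-fold higher and 4 lower.

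Some mitochondrially encoded genes were listed at 0 in one library and at a high level in the other. MT-CO1 was 6423 FPKM in sh-NC and 7143.5 FPKM in sh-LNMAT1#2, and listed at 0 in sh-LNMAT1#1 and the library labelled 5637 sh-NC. MT-ND4 was listed at 0 in sh-NC and sh-LNMAT1#2, and was 5352 FPKM in sh-LNMAT1#1 and 5176 FPKM in the library labelled 5637 sh-NC. MT-CO3, MT-ATP6 and MT-ND3 were listed at 0 in both sh-NC and sh-LNMAT1#1, although every cell uses them. No fold is given for such values, but MT-CO1 and MT-ND4 are counted past the 2-fold limit and stand among the 15 largest falls and rises. Of the 5 mitochondrial genes with values in both libraries, MT-CYB was closest at 2779 and 2908 FPKM and MT-ND6 farthest apart at 846 and 1358 FPKM. RPPH1, the RNA of ribonuclease P, was listed at 0 in sh-NC and sh-LNMAT1#2. It was 631 FPKM in sh-LNMAT1#1 and 164 FPKM in the library labelled 5637 sh-NC. Nuclear copies of the mitochondrial genes can take part of the same reads. MTATP6P1 was 0.119 and 611 FPKM in sh-NC and sh-LNMAT1#1. It was 1.09 and 554 FPKM in sh-LNMAT1#2 and the library labelled 5637 sh-NC. Leaving out all 12 kept genes listed at 0 in 1 of the libraries changed the counts from 710 to 704 higher and from 635 to 629 lower.

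Gene types differed between the rises and the falls. Of the genes at least 2-fold higher 64.6% were protein-coding, of those at least 2-fold lower 83.8%, and of all genes kept 82.8%. The median change was 0.32 over 352 lincRNA genes, of which 19% were at least 2-fold higher and 4.26% lower. It was 0.25 over 418 antisense genes and 0.34 over 68 sense intronic genes, and -0.03 over 9983 protein-coding genes. With sh-LNMAT1#2 the medians of these types were 0.18, 0.06, 0.04 and 0.00. Of 19 long noncoding RNAs with a named role in cancer, 6 were at least 2-fold higher and 0 lower. NEAT1, the scaffold of paraspeckles, was 25.6 FPKM in sh-NC, 75.7 FPKM in sh-LNMAT1#1 and 51.9 FPKM in sh-LNMAT1#2, and MALAT1, of nuclear speckles, was 8.88, 21 and 9.41 FPKM. ZFAS1, a host of small nucleolar RNAs, was 60.1, 145 and 99.5 FPKM. GABPB1-AS1, an antisense gene, was 2.07, 10.9 and 2.71 FPKM. The largest fall of a gene that is not protein-coding was RHEBP1, a processed copy of RHEB, at 42.9, 3.47 and 52.4 FPKM.

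Within protein-coding genes the change moved with gene structure. The median was 0.19 over 177 genes with 1 annotated exon and 0.22 over 232 with 2 to 3 exons, and fell by steps to -0.16 over 2319 genes with more than 40, counting the exons of all transcripts. With sh-LNMAT1#2 it ran from 0.08 to -0.03 over the same ends. Of single-exon genes 12.4% were at least 2-fold higher and 4.52% lower, and of genes with more than 40 exons 2.11% and 6.25%. Median exon length was 3955 bases in the protein-coding genes at least 2-fold higher, 4684 in those lower and 5126 in all kept. What part this gradient has in the lists above was not tested.

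**Figure D2:**
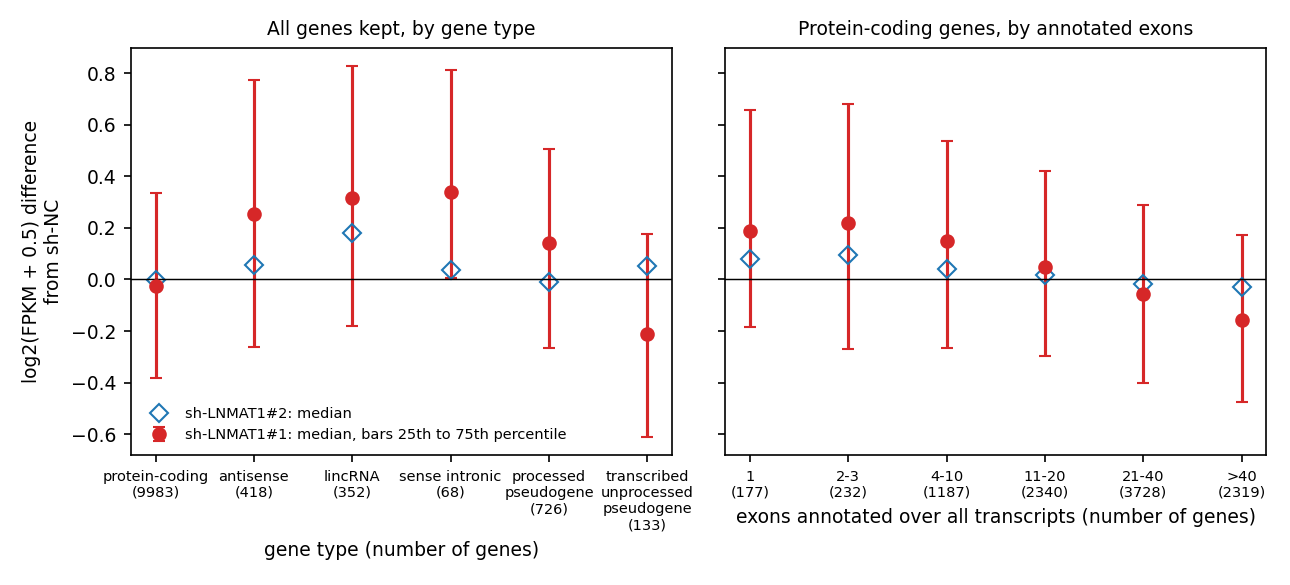
Median change from sh-NC by gene type (left, all genes kept) and by the number of annotated exons (right, protein-coding genes), on the scale of log2(FPKM + 0.5), with the number of genes under each. Red circles and bars give the median and the 25th to 75th percentile in sh-LNMAT1#1 and open diamonds the median in sh-LNMAT1#2. The red medians run from 0.34 for sense intronic genes to -0.21 for transcribed unprocessed pseudogenes, and from 0.19 for single-exon genes to -0.16 for genes with more than 40 exons.

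Along the genome no chromosome stood far from 0: medians of the 23 chromosomes with at least 100 genes kept lay between -0.09 on chromosome 21 and 0.10 on chromosome X. On chromosome X 33 of 436 genes were at least 2-fold higher and 13 lower. Zinc finger genes in the clusters of chromosome 19 had a median of 0.39 over 81 members, with 12 at least 2-fold higher and 1 lower, while all 744 genes kept on that chromosome had a median of 0.06. With sh-LNMAT1#2 the zinc finger median was 0.26, with 11 higher and 1 lower. ZNF83 was 1.09 FPKM in sh-NC, 5.77 FPKM in sh-LNMAT1#1 and 2.90 FPKM in sh-LNMAT1#2, and ZNF766 was 1.19, 4.04 and 3.07 FPKM; ZNF562 was lower at 1.94, 0.459 and 0.535 FPKM. Most of these genes were lowly expressed, and among the 9 with a mean of at least 5 FPKM the median was 0.035.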

How the data were processed

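The values are FPKM per gene, which the authors deposited in 1 table of all 6 libraries. Per the labels, RNA was extracted with TRIzol and made into stranded mRNA libraries, and the submitters' processing notes name HISAT2 and the build hg38. The counting program and annotation are not given in the sources used here. Of 50869 rows, 2 were left out as parts of a broken record, so TGFB1 is not analysed here. Genes were matched by identifier to GENCODE release 29 for type, exons and strand (50110 matched).

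The 2 libraries were compared with Python 3.11.15, numpy 2.4.6 and pandas 2.3.3 as log2(FPKM + 0.5), for genes whose mean over both reached 1 FPKM. With 1 library a side no test was run. The procedure was tested on simulated data. Depth came from single-exon genes with 1 transcript, where at least 99.96% of low values lay within 0.02 of a whole number of fragments, and was given for the 3 UM-UC-3 libraries. Motifs were searched on both strands of RefSeq promoter windows matched by symbol.

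Named were the genes of the study, the 15 largest rises and 15 largest falls among protein-coding and 5 each among other genes with a symbol and a mean of at least 5 FPKM, and in each list up to 4 members past 2-fold with the largest change, or else the 2 highest. Some genes under this rule are not reported here. Other genes are said to be chosen after their values were seen. The comparison and the 53 lists were chosen with earlier results of these data known. Of 1247 kept members, 33 stand in more than 1 list. Alternatives were other pseudocounts, filters, scalings and limits.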

Additional observations from a re-analysis of the deposited data

How the results depend on the processing

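No paired analysis was possible because sh-LNMAT1#1 and sh-NC were each sequenced in a single library, so none could be left out either. The counts of 710 higher and 635 lower genes became 284 and 326 with a filter of 5 FPKM, 1917 and 1800 at 1.5-fold, and 69 and 64 at 4-fold, as fewer genes or another limit entered, and 459 were higher among protein-coding genes alone. Pseudocounts of 0.1 and 1, no filter, 1 FPKM in each library, both scalings and leaving out genes listed at 0 (added after the data were seen) kept both counts within 1.5 times. Scaling moved the median of all genes to 0.06 (75th percentile) or -0.06 (rescaling). Of the list medians, that of interferon-stimulated genes became -1.75 with a pseudocount of 0.1. After rescaling, that of cytosolic ribosomal proteins became 0.15 and that of nuclear-encoded oxidative phosphorylation -0.038. With a filter of 5 FPKM, which left 6 and 9 members, clustered histone genes had 0.73 and zinc finger genes of chromosome 19 0.035. A smaller pseudocount widens each log2 difference, and rescaling shifts all genes by a nearly constant amount. The 814 values of 172 named genes under 5 of these alternatives kept their direction. A pseudocount or a filter cannot reverse a direction, so only the scalings could have done so. Most of these genes were named for a large change, so little follows from this. Whatever differs between single cultures or preparations cannot be told apart from the hairpin.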
